A study of Rattus norvegicus with 18 samples.

Results

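The response of the rat heart to repeated doxorubicin was read from 12 of the 18 heart libraries in the series, 6 from rats given doxorubicin with saline (labelled DOX+saline) and 6 from rats given saline. The libraries were chosen by their treatment label, and the library code in each sample title gave the column of the deposited table. All animals were male Wistar rats, an outbred laboratory strain, weighing 250 g when treatment began. Each rat had 5 weekly injections into a vein. In the DOX+saline group these carried doxorubicin at 3 mg/kg per week, and saline was also given under the skin. In the saline group the injections carried sterile saline. The remaining 6 libraries, from rats given doxorubicin with the AMPK activator AICAR, entered the statistical fit but are not described here. Hearts were removed under isoflurane and clamped frozen, and by the labels each animal gave 1 library of polyadenylated RNA. The sources used here do not give the age of the rats, the part of the heart sampled, the time from the last injection to collection, or the hour of collection. Saline animals were numbered 51 to 56 and DOX+saline animals 1 to 6, so anything that follows the number series cannot be told apart from the treatment.

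Doxorubicin is an anthracycline cancer drug that intercalates into DNA and traps topoisomerase II on broken strands. It also cycles electrons with iron and oxygen, accumulates in mitochondria, and is known for a cumulative, dose-dependent injury to heart muscle. A failing ventricle typically returns to a fetal programme, in which natriuretic peptides and beta myosin are raised and calcium-cycling genes are lowered, while fibroblasts lay down matrix.

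Values are TPM, transcripts per 1e+06, a length-scaled share of each library's total. Genes carry Ensembl identifiers without names in the deposited table. Names were therefore given only to identifiers known from the Ensembl rat annotation and lying in the block of rows of their chromosome. Within the blocks, row order followed the reference for all used identifiers but those of Col1a2 and Junb, whose names are less certain. Row order alone cannot settle a name, since Cd36 and Hprt1 passed this check and were still dropped for low levels. In this way 144 genes of 21 lists could be measured. A change is the difference of group means on the log2(TPM + 1) scale with its standard error (SE), and a gene was called changed at a limma adjusted p below 0.05. Of 14732 genes tested, 58% were called, 38% higher and 20% lower after doxorubicin, and the median change of all genes was 0.10. Genes called with at least a 2-fold change made up 6.68% higher and 0.726% lower, and in 32.2% of genes the groups did not overlap. TPM has a fixed total, and the split of calls moved with scaling: 65.5% of calls were higher with TPM as deposited, 47.9% after median-of-ratios scaling and 40.9% after quantile normalization. Those scalings shifted the median of all genes by -0.11 and -0.16, so small changes near the median are the least certain. Of the 141 list genes tested, 90 were called higher and 31 lower, and 76 and 29 of these kept their call under all 3 scalings. In bulk tissue, fewer cells of a type and less RNA per cell cannot be told apart.

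**Figure D1:**
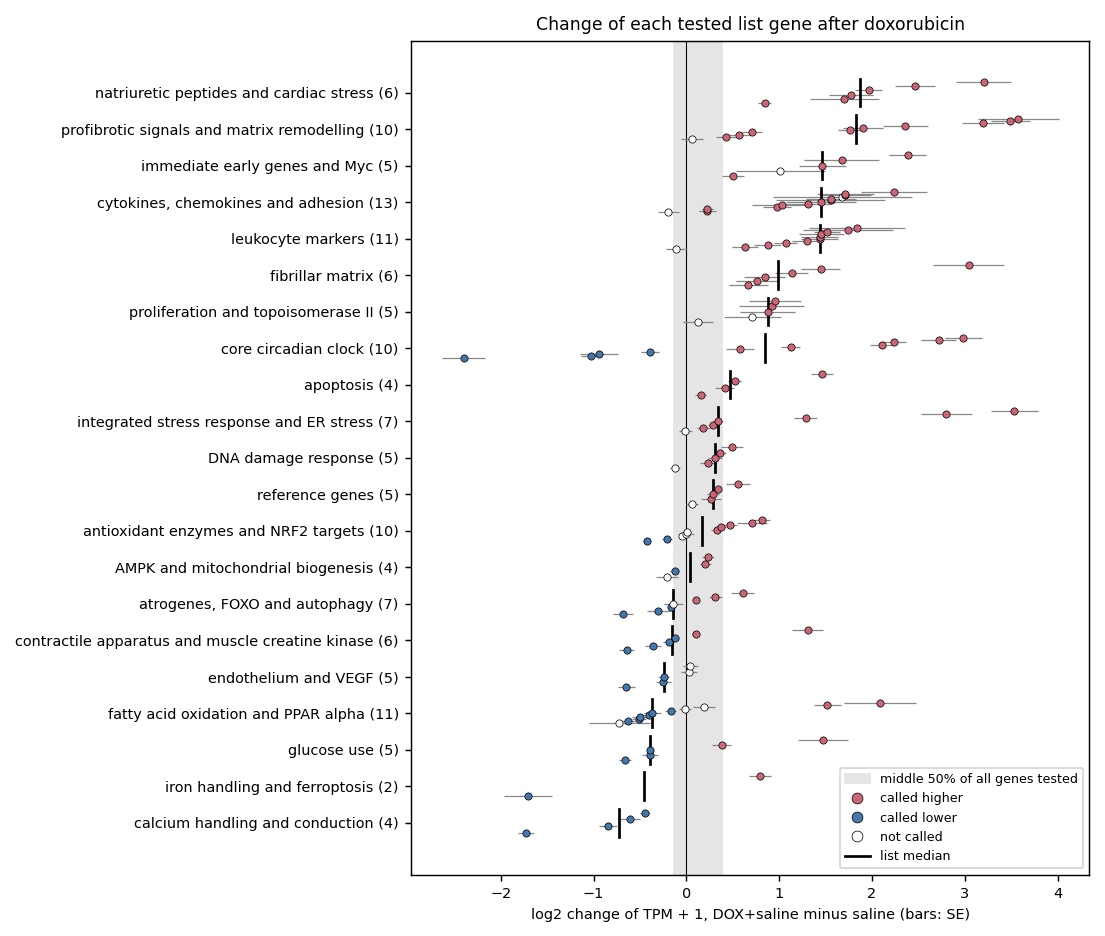
Change of each tested gene after doxorubicin, by gene list, on the log2(TPM + 1) scale (x axis, DOX+saline minus saline, with the SE as bars); numbers of genes tested stand beside the list names. Red points were called higher, blue lower and white not called, the black line is the list median and the grey band spans the middle 50% of all genes. Cardiac stress and profibrotic genes lie to the right of the band and all 4 calcium handling genes to the left.

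The libraries carried the markers of heart muscle. Cardiac troponin T (Tnnt2) stood at 5565 TPM or more and cardiac actin (Actc1) at 6397 TPM or more in all 12 libraries. The DOX+saline libraries also held transcripts known as markers of other tissues or cell types. Adiponectin (Adipoq), secreted by fat cells, was at 0.0313 to 0.327 TPM in saline and 11 to 118 TPM in DOX+saline hearts. Ucp1, the uncoupling protein of brown fat, was at 0 to 0.128 TPM in saline and 18.9 to 365 TPM in DOX+saline hearts. The 10 adipose markers given here were picked after their values had been seen, and their summed level was 826 to 1003 TPM against 1207 to 2572 TPM. The fatty acid carrier Fabp4, which heart capillaries also express, made up most of the saline sum at 780 to 948 TPM. Thrsp, a regulator of fat synthesis, and Ucp1 had the largest increases of all genes with at least 5 TPM in a group.

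Lymphoid transcripts were uneven among the treated animals. Rag1, the recombinase of developing lymphocytes, was at 19.3 TPM in DOX+saline animal 3 and at most 0.433 TPM in the other 5. Ccr7, a chemokine receptor of lymphocytes and dendritic cells, was at 11.7 TPM in animal 1 and 11.8 TPM in animal 6, against at most 2.12 TPM in the others. The 6 lymphoid markers summed to 2.80 to 6.26 TPM in saline and 2.96 to 80.4 TPM in DOX+saline hearts. Schwann cell markers (9.30 to 12.2 against 16.9 to 49.9 TPM summed), the smooth muscle gene Tagln (77.8 to 118 against 235 to 516 TPM) and beta globin (1099 to 1324 against 3277 to 6360 TPM) were higher as well. Albumin (Alb), made by the liver, was at 0 to 0.401 TPM in saline and 1.37 to 25.7 TPM in treated hearts, while other liver genes were at low levels. Cps1 was at 0 to 0.0163 TPM in saline and 0.488 to 0.678 TPM in treated hearts, Tat at 0 in saline and 0.0299 to 0.0683 TPM in treated hearts, and G6pc overlapped at 0.0284 to 0.171 against 0 to 0.111 TPM. The source of these marker transcripts, and its part in the results that follow, was not tested. Animal 2 had the least adipose signal of the treated hearts, with Adipoq at 11 TPM and Ucp1 at 18.9 TPM, above every saline heart.

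**Figure D2:**
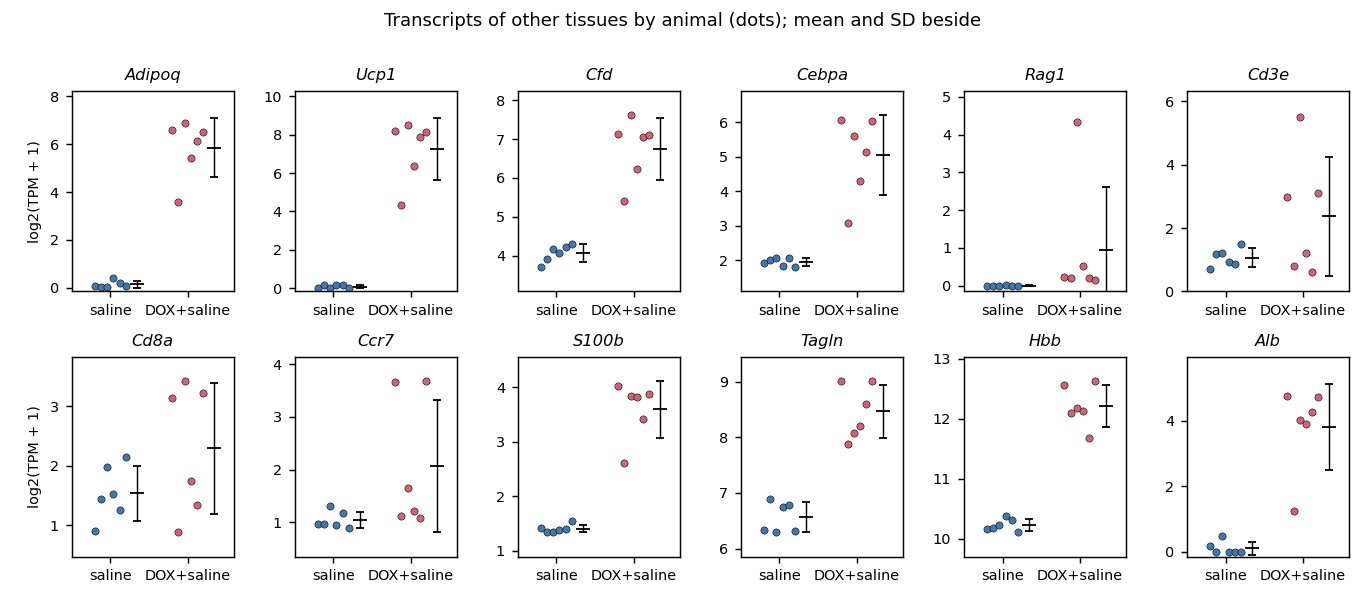
Levels of transcripts known as markers of fat (Adipoq, Ucp1, Cfd, Cebpa), lymphoid organs (Rag1, Cd3e, Cd8a, Ccr7), Schwann cells (S100b), smooth muscle (Tagln), red blood cells (Hbb) and liver (Alb), as log2(TPM + 1) on the y axis. Their source was not tested. Each dot is 1 animal, 6 per group, in the order of animal number, with mean and SD beside. Fat transcripts are raised in all 6 DOX+saline animals and least in animal 2, and Rag1 is raised to 19.3 TPM in animal 3 alone.

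DOX+saline animals 1 and 6 were nearly alike. Over genes with at least 50 reads, the median chi-square per gene between them was 1.36 times the value sampling alone gives, against 6.96 to 18.2 for the other 14 pairs of treated animals and 2.90 to 6.40 for the 15 saline pairs. The difference exceeds read sampling noise, but 2 libraries made from the same tissue or RNA could exceed it too, so whether they are separate animals was not settled. They were kept as 2 samples as labelled, with n = 6. Averaged into 1 sample they gave 7949 calls over all genes in place of 8538. Animals 2, 4 and 5 alone gave 6111, a setting that leaves out the libraries with the most lymphoid transcripts and also lowers the treated group from 6 to 3. Among the list genes that setting called 72 higher and 26 lower.

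Cardiac stress genes rose in treated hearts. All 6 tested genes of the list were called higher, with no overlap between groups and a median log2 change of 1.87. Atrial natriuretic peptide (Nppa), a hormone released by stretched heart muscle, ran from 260 through a median of 541 to 1364 TPM in saline and from 4154 through 5307 to 6655 TPM in DOX+saline hearts. Its log2 change was 3.20 (SE 0.30, limma adjusted p = 1.3e-07). The lowest treated heart was above the highest saline heart, although the saline animals themselves spread widely. Brain natriuretic peptide (Nppb), the ventricular member of the family, had a lowest, median and highest level of 187, 285 and 415 TPM in saline and 885, 1183 and 1319 TPM in treated hearts, a change of 1.96 (SE 0.14, limma adjusted p = 9.99e-09).

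Gdf15, a circulating stress cytokine of the TGF-beta family, stood at 3.67, 4.38 and 5.66 TPM in saline and 23.8, 27.6 and 40.7 TPM in DOX+saline hearts. Its log2 change was 2.46 (SE 0.21, limma adjusted p = 5.89e-08). Skeletal alpha-actin (Acta1), a fetal isoform, rose by 1.78, from a saline range of 260 to 992 TPM to 1662 to 2770 TPM. Near-identical actin copies can share reads, so the actin values are uncertain to that extent. Endothelin 1 (Edn1), a vasoconstrictor peptide, ranged from 1.23 to 2.59 TPM in saline and was at 21.3 and 18 TPM in treated animals 1 and 6 against 3.29 to 7.23 TPM in the other 4. The ankyrin repeat protein Ankrd1, a stretch-sensitive sarcomere partner, went from a median of 2514 to 4684 TPM.

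Contractile genes moved in both directions. Beta myosin heavy chain (Myh7), the slow fetal isoform, stood at 706, 1236 and 1559 TPM in saline and 2327, 2934 and 3480 TPM in treated hearts. The log2 change was 1.31 (SE 0.17, limma adjusted p = 5.05e-06) and the groups did not overlap. Myosin heavy chain copies are close in sequence, and how shared reads were counted is not given. Muscle creatine kinase (Ckm), which regenerates ATP at the myofibril, fell by 0.64 (SE 0.08, limma adjusted p = 3.99e-06), from 2200, 2322 and 2553 TPM to 1278, 1542 and 1839 TPM. Cardiac troponin I (Tnni3) fell by 0.36, with group ranges of 3439 to 4803 and 2633 to 3512 TPM that overlapped. Tnnt2 fell by 0.19 (limma adjusted p = 0.0108), and quantile normalization ended that call at -0.09. Actc1 was called lower by 0.12 and desmin (Des), the muscle intermediate filament, higher by 0.10, but Actc1 turned to 0.10 under quantile normalization and Des to -0.02 under median-of-ratios factors. Leaving out saline animal 51 also ended the call of Actc1 (-0.10). The list held 7 genes, of which alpha myosin heavy chain (Myh6) could not be measured. Over the 6 tested genes 2 were called higher and 4 lower, with a median log2 change of -0.16, and quantile normalization gave 2 and 2. The call of Des was also lost without any of animals 1, 4, 6, 52, 53, 55 or 56.

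Calcium handling and conduction genes fell where they could be tested, which was 4 of the 7 in the list, the others having no identifier that could be named. All 4 were called lower, none overlapped between groups, and their median log2 change was -0.73. The ryanodine receptor Ryr2, through which the sarcoplasmic reticulum releases calcium, held a narrow band of 353, 369 and 381 TPM in saline. In treated hearts its lowest, median and highest levels were 88.1, 104 and 144 TPM. The change was -1.73 (SE 0.09, limma adjusted p = 7.73e-10), and every treated heart lay far under every saline heart. The calcium pump SERCA2 (Atp2a2), which refills the reticulum, went from 2941, 3143 and 3457 TPM to 2150, 2281 and 2637 TPM, a change of -0.45 (SE 0.05, limma adjusted p = 1.66e-06). Connexin 43 (Gja1), the ventricular gap junction channel, fell by 0.85, from 508 to 649 TPM in saline to 278 to 414 TPM. The L-type calcium channel subunit Cacna1c fell by 0.61, and its lowest saline value of 72.6 TPM stood just above its highest treated value of 70.7 TPM, in animal 2.

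**Figure D3:**
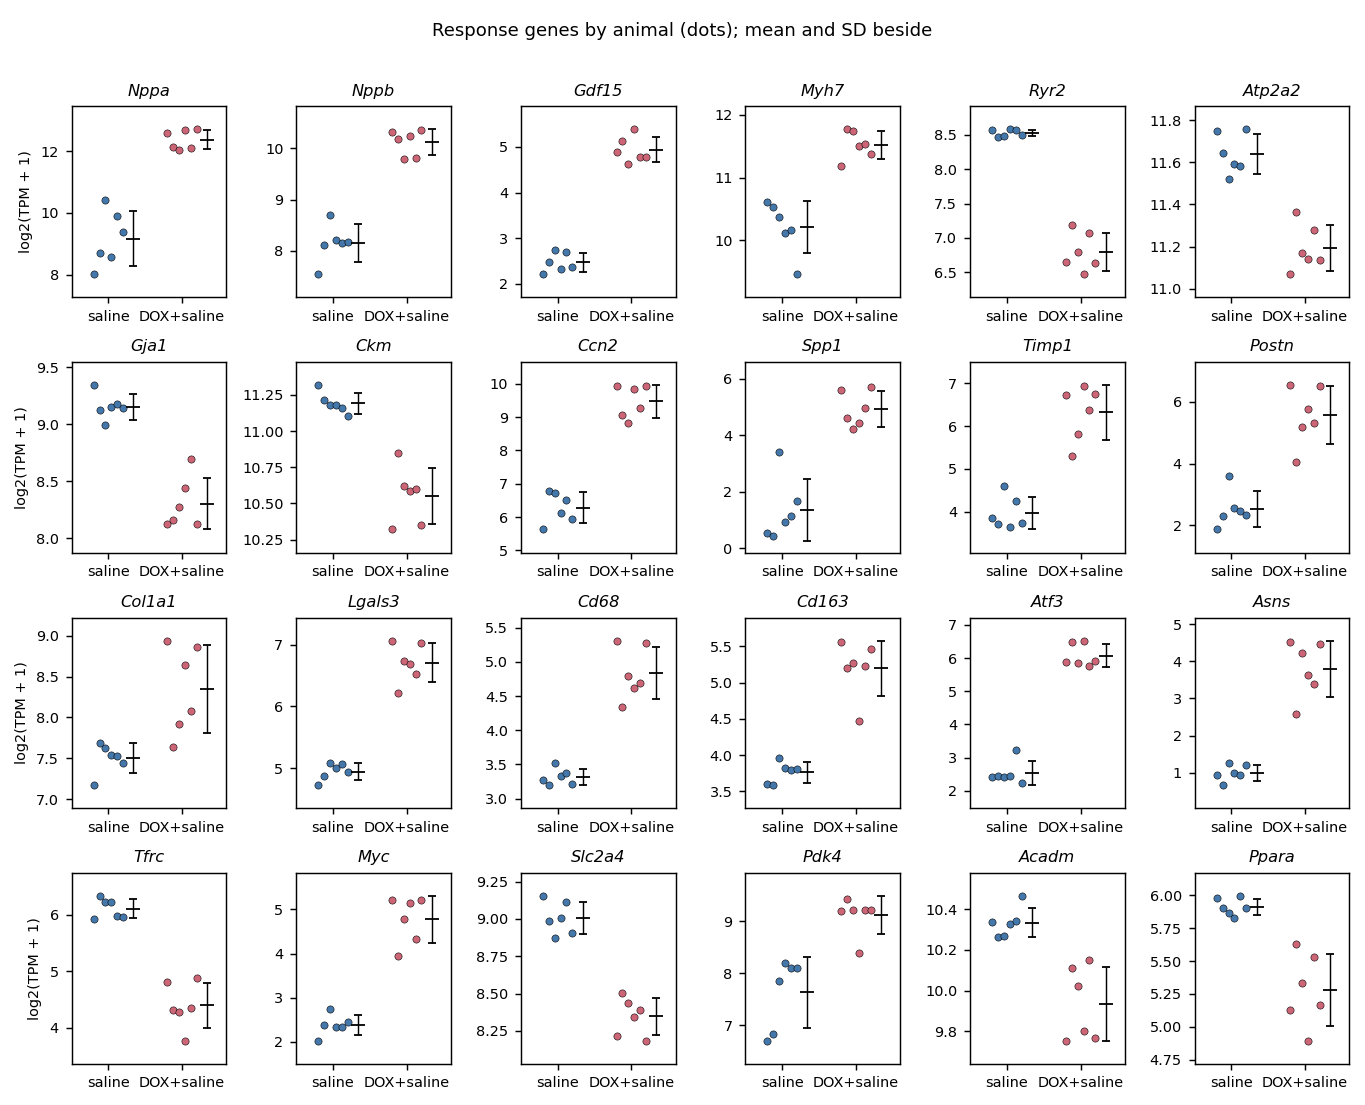
Levels of 24 genes by animal, as log2(TPM + 1) on the y axis with a separate scale per gene; dots are the 6 saline and 6 DOX+saline animals in order of number, with mean and SD beside. Nppa, Nppb, Gdf15, Ccn2, Spp1, Atf3 and Asns are higher in every treated animal, Ryr2, Gja1, Ckm, Tfrc and Slc2a4 are lower, and the Col1a1 groups overlap.

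Fibrosis signals and fibrillar matrix genes rose. In the list of profibrotic signals and matrix remodelling, 9 of 10 tested genes were called higher and none lower, with a median log2 change of 1.83. Connective tissue growth factor (Ccn2), a matricellular signal downstream of TGF-beta and mechanical load, went from 48.4, 79.6 and 108 TPM to 452, 769 and 978 TPM (change 3.19, SE 0.23, limma adjusted p = 8.16e-09). The groups were far apart. Osteopontin (Spp1), secreted by macrophages and stromal cells, changed by 3.58 (SE 0.44, limma adjusted p = 2.53e-06), from 0.352, 1.07 and 9.57 TPM to 17.5, 27.0 and 51.9 TPM.

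The metalloproteinase inhibitor Timp1 rose by 2.36, from 11.4 to 23.1 TPM in saline to 38.5 to 122 TPM. Galectin 3 (Lgals3), a macrophage lectin, rose by 1.76, from 25.5 to 32.8 TPM to 73.0 to 133 TPM. Smooth muscle actin (Acta2), the marker of myofibroblasts, rose by 1.90 in the same animals in which Tagln rose. The cytokine TGF-beta 1 (Tgfb1) itself rose by 0.43 with overlapping groups, and the membrane protease Mmp14 was not called at 0.06 (limma adjusted p = 0.678).

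All 6 genes of the fibrillar matrix list were called higher, with a median log2 change of 0.99. Periostin (Postn), made by activated fibroblasts, stood at 2.66, 4.27 and 11.1 TPM in saline and 15.7, 46.3 and 92.1 TPM in DOX+saline hearts. Its log2 change was 3.04 (SE 0.38, limma adjusted p = 3.71e-06). Animals 1 and 6 were the highest of the treated hearts and animal 2 the lowest, still above every saline heart. Type I collagen (Col1a1) changed by 0.84 (SE 0.22, limma adjusted p = 0.0036), from 143, 185 and 205 TPM to 198, 333 and 490 TPM, and animal 2 lay within the saline range. Col3a1, its partner in the fibres, changed by 0.67 with overlapping groups. In animal 2, Col1a1, Col1a2 and Col3a1 stood at 0.13, -0.10 and 0.002 against the saline mean on the log2 scale, all within the saline range. Postn, Lox and Fn1 lay above that range in animal 2, at 1.54, 0.92 and 0.51. With animals 2, 4 and 5 alone, Col3a1 (0.49) and Col1a2 (0.47) were no longer called. The collagen crosslinking enzyme Lox rose by 1.45 and fibronectin (Fn1), an early matrix scaffold, by 1.13, both without overlap. Adipose, smooth muscle and Schwann markers were raised in the same libraries, and their part in the matrix values was not tested.

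Inflammatory genes rose in most cases: 11 of 13 tested cytokine, chemokine and adhesion genes were called higher and none lower, with a median log2 change of 1.45. Median-of-ratios factors gave 9 higher and 1 lower. Prostaglandin synthase 2 (Ptgs2) stood at 0.0784, 0.25 and 0.452 TPM in saline and 2.01, 5.41 and 9.07 TPM in treated hearts, a change of 2.24 (SE 0.36, limma adjusted p = 4.48e-05). The monocyte chemokine Ccl2 went from 5.22, 6.38 and 9.01 TPM to 19.7, 24.0 and 28.6 TPM (change 1.71, SE 0.27, limma adjusted p = 4.22e-05). Both genes were higher in every treated heart. The leukocyte adhesion molecules Vcam1 and Icam1 rose by 1.72 and 1.45, and the NF-kappa-B inhibitor Nfkbia, itself a target of that factor, by 1.56, all without overlap.

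Animal 2 stood apart in this list. Interleukin 1 beta (Il1b) was at 28.2 TPM in it against 1.62 to 7.87 TPM in the other treated hearts, and without this animal its change of 1.56 became 1.15 and was no longer called (limma adjusted p = 0.0781). The call of Il1b was also lost without any of animals 1, 3, 6, 51, 52 or 56, at 1.43 to 1.53. The neutrophil chemokine Cxcl1 was at 50.3 TPM in animal 2 and 3.09 to 8.06 TPM in the others, above the saline range of 1.48 to 2.31 TPM in all 6, yet it was not called at 1.68 (SE 0.75, limma adjusted p = 0.0634). Its call depended on the fit: it was called without animal 5 (1.91), with the 12 compared libraries alone (1.68, limma adjusted p = 0.00925), with array weights (1.44) and with pseudocounts of 0.1 (2.04) and 0.5 (1.86). The membrane-bound chemokine Cx3cl1 was not called at -0.19, but was called lower under median-of-ratios factors (-0.31) and with the 12 compared libraries alone (-0.19).

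Leukocyte markers were called higher in 10 of 11 tested cases, with a median log2 change of 1.44. The macrophage lysosomal protein Cd68 ran from 8.20 through 8.87 to 10.5 TPM in saline and from 19.2 through 25.7 to 38.6 TPM in treated hearts, a change of 1.52 (SE 0.14, limma adjusted p = 1.18e-07). The haemoglobin scavenger receptor Cd163 of resident macrophages rose by 1.44, from 11 to 14.6 TPM to 21.2 to 46.1 TPM. The pan-leukocyte phosphatase Ptprc rose by 1.46, with its lowest treated value, 9.15 TPM, in animal 2. The antigen presentation chain Cd74 was the exception, at 723 to 816 TPM in saline and 500 to 872 TPM in treated hearts (change -0.11, limma adjusted p = 0.436). With animals 2, 4 and 5 alone it was called lower, at -0.38. The neutrophil proteins S100a8 and S100a9 rose by 1.74 and 1.84, but neither was called in those 3 animals, at 1.41 and 1.30. Lymphoid transcripts were highest in animals 1, 3 and 6, where Ptprc was high as well, and their part in the leukocyte values was not tested.

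DNA damage and cell cycle genes, which a topoisomerase II poison is known to engage, were called higher with small changes or at low levels. Of 5 DNA damage response genes 4 were called higher, with a median log2 change of 0.31 and 1 gene without overlap. That gene was Mdm2, a ubiquitin ligase induced by DNA damage, at 28.2, 32.2 and 33.3 TPM in saline and 39.1, 40.4 and 44.1 TPM in treated hearts (change 0.36, SE 0.06, limma adjusted p = 7.12e-05). The cell cycle inhibitor p21 (Cdkn1a) changed by 0.49 with overlapping groups. Cyclin G1 (Ccng1), a cyclin induced by DNA damage, was not called at -0.12. It was called lower under median-of-ratios factors (-0.24), with array weights (-0.18) and without animal 4 (-0.14), 5 (-0.16) or 55 (-0.14).

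Proliferation genes were called higher in 3 of 5 tested cases, where 38% of all genes were called higher. These 3 were at low levels, and none was without overlap. Topoisomerase II alpha (Top2a), the drug's target in dividing cells, was at 1.33, 2.88 and 4.44 TPM in saline and 2.13, 7.14 and 18.2 TPM in treated hearts. Its change of 0.92 (SE 0.35, limma adjusted p = 0.0331) rested on few animals: the highest value was in animal 3, which carried the Rag1 signal, and without it the change was 0.64 and not called. Leaving out any of animals 1, 6, 51, 52 or 55 ended the call as well, at 0.77 to 0.90, and quantile normalization left 1 of the 5 genes called. With animals 2, 4 and 5 alone the changes of Top2a, the division marker Mki67 and cyclin B1 (Ccnb1) were 0.14, 0.24 and 0.33, none called. The kinase Cdk1 was not called at 0.71 but passed with array weights (0.99) and without animal 2 (0.88), 5 (0.89), 53 (0.81) or 56 (0.86).

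All 4 apoptosis genes were called higher, with a median log2 change of 0.47. Bcl-xL (Bcl2l1), which protects mitochondria from permeabilization, stood at 25, 27.6 and 30.6 TPM in saline and 61.7, 79.2 and 93.3 TPM in treated hearts. Its log2 change was 1.46 (SE 0.12, limma adjusted p = 3.72e-08), without overlap. The pore-forming Bax rose by 0.52, from 27.3 to 34.7 TPM to 38.1 to 49.0 TPM. The call of Bcl2, another protector, at 0.15 was lost under both other scalings (0.03 and 0.05) and without any of animals 1, 6, 54, 55 or 56.

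Among integrated stress response genes, 6 of 7 were called higher, with a median log2 change of 0.34. The transcription factor Atf3 ran from 3.71 through 4.40 to 8.49 TPM in saline and from 53.6 through 58.7 to 90.8 TPM in treated hearts. It changed by 3.54 (SE 0.25, limma adjusted p = 8.3e-09), and its groups were far apart. Asparagine synthetase (Asns), a target of Atf4, stood at 0.584, 0.946 and 1.40 TPM in saline and 4.96, 14.5 and 21.9 TPM after doxorubicin (change 2.80, SE 0.27, limma adjusted p = 2.33e-07). The pseudokinase Trib3, another Atf4 target, rose by 1.29, from 1.51 to 2.80 TPM to 5.66 to 8.01 TPM. Atf4 itself rose by 0.29. Ddit3 (CHOP), the death-promoting factor of the same pathway, was not called at -0.01 (limma adjusted p = 0.899), and the call of the chaperone Hspa5 at 0.18 was lost under median-of-ratios factors (0.06) and without any of animals 1, 4, 6, 52, 53, 54 or 56.

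Immediate early genes were called higher in 4 of 5 tested cases, with a median log2 change of 1.47. Myc, a growth-promoting transcription factor, went from 3.08, 4.16 and 5.75 TPM to 14.5, 30.4 and 36.1 TPM, a change of 2.39 (SE 0.20, limma adjusted p = 4.49e-08). Egr1 and Junb rose by 1.68 and 1.47. Fos was not called at 1.01 (limma adjusted p = 0.0806), its highest value, 91.5 TPM, being in saline animal 55, and without that animal it was called at 1.38.

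Core clock genes split into 2 sets. The clock is a loop in which Bmal1 with Clock or Npas2 drives the Per, Cry and Nr1d genes, whose products repress it, and Dbp is an output gene of the same drive. The activators Bmal1, Npas2 and Clock and the repressor Cry1 were called lower, and Per1, Per2, Per3, Dbp, Nr1d1 and Nr1d2 higher, so that all 10 were called. Bmal1 stood at 52.8, 54.1 and 62.6 TPM in saline and 4.08, 11.9 and 15.9 TPM in treated hearts, a change of -2.40 (SE 0.23, limma adjusted p = 2.2e-07). Per1 stood at 8.37, 9.13 and 23.6 TPM in saline and 82.0, 89.5 and 104 TPM in treated hearts (change 2.99, SE 0.20, limma adjusted p = 3.69e-09). Dbp went from 16.7, 19.1 and 25.1 TPM to 109, 127 and 227 TPM (change 2.72, SE 0.19, limma adjusted p = 6.13e-09). The groups overlapped only for Nr1d1, at 51.3 to 79.5 against 79.2 to 142 TPM. Per2 and Per3 rose by 2.11 and 2.24, Npas2 fell by 0.94 and Cry1 by 1.03. Clock genes cycle with the hour of the day, and since the hour of collection is not known here, hour and treatment cannot be told apart for this list.

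**Figure D4:**
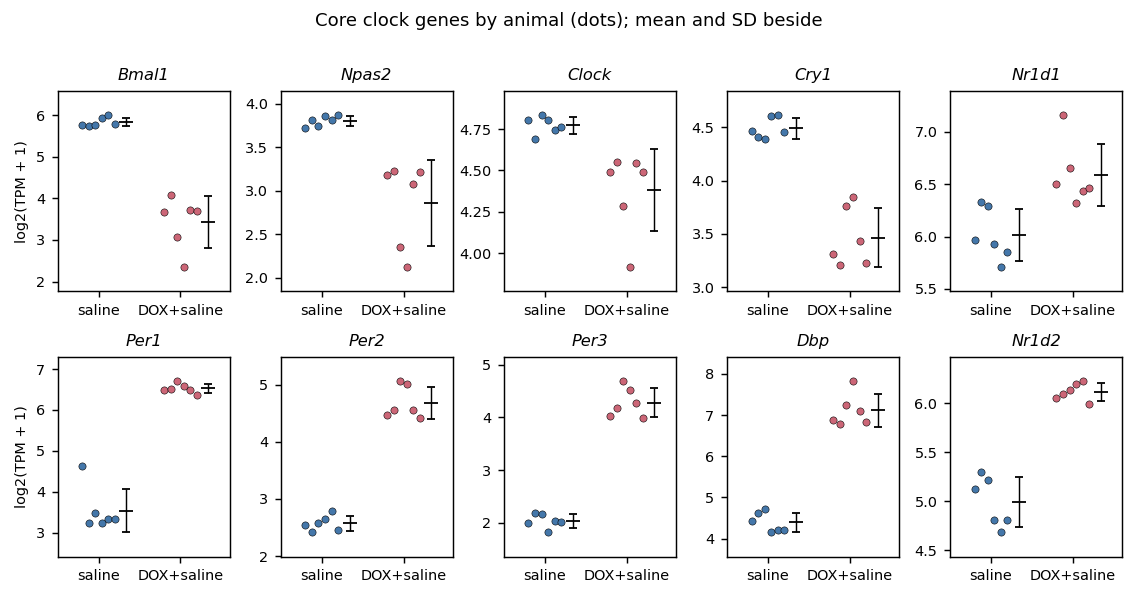
Levels of the 10 core clock genes by animal, as log2(TPM + 1) on the y axis with a separate scale per gene; dots are animals in order of number, with mean and SD beside. Bmal1, Npas2, Clock and Cry1 are lower in all 6 treated hearts, and Per1, Per2, Per3, Dbp and Nr1d2 are higher in all 6.

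Promoters of 3 genes from these lists are shown because a searched motif lies in them and the genes moved strongly. They are RefSeq sequences of the build GRCr8, while the deposited values rest on Rnor_6.0, and run from 250 bases before to 50 after the gene start; capitals mark the motif. Bmal1 at chr1:176766078-176766377 (plus strand) holds TAGGTCA, bound by REV-ERB and ROR receptors. Per2 at chr9:99496944-99497243 (minus strand) holds the D-box TTATGNAA, a site type of Dbp. Trib3 at chr3:161275484-161275783 (minus strand) holds, on the opposite strand, the C/EBP-ATF composite TGATGNAA, a site type of Atf4.
Bmal1: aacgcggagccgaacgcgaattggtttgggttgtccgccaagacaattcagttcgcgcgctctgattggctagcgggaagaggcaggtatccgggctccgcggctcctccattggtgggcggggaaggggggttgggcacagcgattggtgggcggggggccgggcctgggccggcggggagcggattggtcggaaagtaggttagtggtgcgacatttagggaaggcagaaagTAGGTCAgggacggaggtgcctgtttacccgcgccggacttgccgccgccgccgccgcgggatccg
Per2: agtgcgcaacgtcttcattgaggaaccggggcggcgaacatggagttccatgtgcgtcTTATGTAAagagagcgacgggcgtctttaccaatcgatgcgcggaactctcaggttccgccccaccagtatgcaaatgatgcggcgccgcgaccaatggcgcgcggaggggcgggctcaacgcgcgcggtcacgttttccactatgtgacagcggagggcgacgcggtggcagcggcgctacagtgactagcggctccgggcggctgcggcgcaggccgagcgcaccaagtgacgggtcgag
Trib3: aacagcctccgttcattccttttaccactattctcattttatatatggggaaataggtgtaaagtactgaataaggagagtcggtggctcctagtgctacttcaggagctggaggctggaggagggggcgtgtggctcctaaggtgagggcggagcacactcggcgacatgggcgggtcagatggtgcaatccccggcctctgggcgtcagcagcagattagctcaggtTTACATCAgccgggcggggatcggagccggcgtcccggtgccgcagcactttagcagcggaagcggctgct

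On both strands, TAGGTCA lies in 2.63%, TTATGNAA in 3.66%, TGATGNAA in 3.98% and the E-box CACGTG in 6.42% of all 33469 promoters of this length. Of the 10 clock genes 9 had a promoter in the table, 1 with the REV-ERB motif, 1 with the D-box and 0 with an E-box in this window. Of the 7 integrated stress response genes 6 had a promoter, 1 with the C/EBP-ATF motif and 1 (Atf4) with an E-box. A match describes these letters only.

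Genes of fatty acid and glucose use were called lower more often than higher. In the list of fatty acid oxidation and PPAR alpha, 6 of 11 tested genes were called lower and 2 higher, with a median log2 change of -0.37. Over all genes 20% were called lower and 38% higher. The receptor Ppara, which drives fat-burning genes, stood at 55.9, 58.9 and 62.6 TPM in saline and 28.8, 37.2 and 48.6 TPM in treated hearts (change -0.63, SE 0.11, limma adjusted p = 7.29e-05). The fatty acid carrier Fabp3 and the mitochondrial dehydrogenase Acadm fell by 0.50 and 0.40, both without overlap. Angptl4, a lipase inhibitor made by fat and muscle, rose by 2.09 with overlapping groups, and adipose markers were raised in the same hearts, a part that was not tested. The uncoupling protein Ucp3 was not called at -0.72 (limma adjusted p = 0.0678). It was called lower under both other scalings (-0.84 and -0.91), with array weights (-0.88) and without animal 2 (-0.86), 3 (-0.83) or 51 (-0.94). The call of Cpt1b, the muscle carnitine transferase, at -0.17 was lost without animal 1, 4 or 6, at -0.13 to -0.16.

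Of 5 genes of glucose use 3 were called lower and 2 higher, where 20% of all genes were called lower and 38% higher. The insulin-responsive transporter GLUT4 (Slc2a4) stood at 468, 510 and 568 TPM in saline and 290, 329 and 363 TPM in treated hearts (change -0.66, SE 0.07, limma adjusted p = 2.8e-07). Hexokinase 2 (Hk2), which traps glucose in the cell, fell by 0.40. Pdk4, the kinase that shuts pyruvate out of oxidation, rose by 1.48, from 103 to 293 TPM to 334 to 690 TPM, with animal 4 the lowest of the treated hearts. The basal transporter GLUT1 (Slc2a1) rose by 0.38 with overlapping groups. Gapdh, often used as a reference gene, was lower by 0.39 without overlap, although its processed copies can share reads. In the list of AMPK and mitochondrial biogenesis, 2 of 4 tested genes were called higher and 1 lower. Median-of-ratios factors gave 0 higher and 2 lower, and quantile normalization 0 and 1. Prkaa1, the alpha 1 subunit of AMPK, was called higher by 0.24, but under neither other scaling (0.12 and 0.07). The coactivator Ppargc1a was not called at -0.21, and was called lower under median-of-ratios factors (-0.33), with array weights (-0.24) and without animal 3 (-0.28).

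Antioxidant genes divided: 5 of 10 were called higher and 2 lower, with a median log2 change of 0.17, and median-of-ratios factors gave 5 and 4. Over all genes 38% were called higher and 20% lower, so these shares are near the background. The glutathione synthesis subunit Gclc stood at 13.4, 14.8 and 16.6 TPM in saline and 19.7, 27.3 and 30.9 TPM in treated hearts (change 0.81, SE 0.09, limma adjusted p = 9.04e-07). Haem oxygenase (Hmox1) rose by 0.71 and the regulatory subunit Gclm by 0.47, both without overlap. Mitochondrial superoxide dismutase (Sod2) fell from 641, 663 and 681 TPM to 451, 480 and 549 TPM (change -0.43, SE 0.04, limma adjusted p = 3.92e-07). Nqo1, a classic target of the same factor NRF2 as Gclc, was not called at 0.00 (limma adjusted p = 0.996). Catalase (Cat) was not called at -0.04, but was under median-of-ratios factors (-0.16).

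Of the iron list, 2 genes could be tested. The transferrin receptor Tfrc, the entry gate for iron, stood at 59.5, 67.8 and 79.0 TPM in saline and 12.7, 19.1 and 28.3 TPM in treated hearts. Its change of -1.71 (SE 0.26, limma adjusted p = 2.52e-05) came with no overlap between groups. Acsl4, which loads membranes with oxidizable lipids, rose by 0.80, from 4.62 to 6.43 TPM to 7.34 to 12.9 TPM.

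Atrophy, FOXO and autophagy genes went both ways, 3 of 7 higher and 3 lower, or 2 and 4 with median-of-ratios factors. The shares over all genes were 38% higher and 20% lower, so the higher share is near the background. The muscle ubiquitin ligase atrogin 1 (Fbxo32) fell by 0.68, from 137 to 166 TPM to 71.4 to 122 TPM, whereas its partner MuRF1 (Trim63) was not called at -0.14. Trim63 was called lower without animal 2 (-0.22), under median-of-ratios factors (-0.26) and with array weights (-0.25). Foxo1, a transcription factor that drives atrogin 1, was called lower at -0.30 (limma adjusted p = 0.0495), a call that was lost without any of 10 of the 12 animals, and without animal 4 the change was -0.17. Foxo3, its relative, rose by 0.61 with overlapping groups.

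Of 5 endothelial and VEGF genes 3 were called lower and 0 higher, where 20% of all genes were called lower and 38% higher. The VEGF receptor 2 gene Kdr stood at 65.1, 72.1 and 77.5 TPM in saline and 36.8, 46.4 and 56 TPM in treated hearts (change -0.65, SE 0.09, limma adjusted p = 9.72e-06), without overlap. Nitric oxide synthase 3 (Nos3) and the growth factor Vegfa each fell by 0.25, and in both the groups overlapped. The receptor Flt1 was not called at 0.04.

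Of 5 common reference genes 4 were called higher, where 38% of all genes were. Their median log2 change was 0.29, against 0.10 over all genes. Median-of-ratios factors and quantile normalization each left 3 of the 5 called higher, with medians of 0.16 and 0.29. The ribosomal protein gene Rplp0 rose by 0.34 and Actb by 0.55, both without overlap, and Tbp was not called at 0.06. The largest decreases of all genes with at least 5 TPM in a group belonged to 2 identifiers whose names are not known here. ENSRNOG00000009227 went from 47.0, 55.3 and 64.6 TPM to 7.24, 9.29 and 10.8 TPM (change -2.50), and ENSRNOG00000032274 from 38.5, 60.1 and 82.8 TPM to 5.01, 12.1 and 14.7 TPM (change -2.43).

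Treated hearts differed among themselves more than saline hearts, with a median SD per gene of 0.165 against 0.112 on the log2(TPM + 1) scale. The mean change of the stress list lay between 1.7 and 2.3 in each of the 6 treated animals, and that of the calcium list between -1.1 and -0.6. The fibrillar matrix list ranged more widely, from 0.5 in animal 2 to 1.9 in animals 1 and 6. In the contractile, glucose and fatty acid lists the mean change was slightly above 0 while the median was below it, because few members with large increases stood beside more numerous decreases. The 50 highest genes took 21.4% ± 1.14 of the total in saline and 19.3% ± 0.762 in DOX+saline hearts (SD, n = 6 each; two-sided exact permutation p = 0.00433, with 0.00216 the smallest p this design allows).

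**Figure D5:**
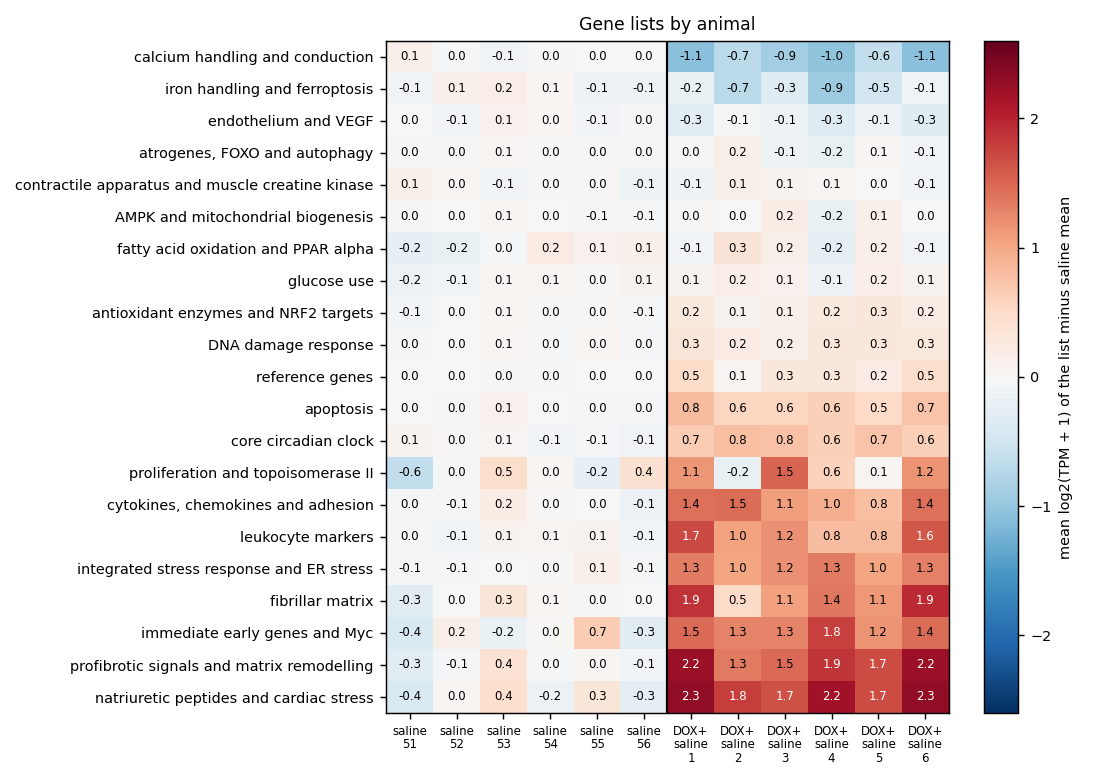
Mean log2(TPM + 1) of each gene list minus the mean of the 6 saline animals (colour and number in each cell), for the 6 saline animals on the left of the line and the 6 DOX+saline animals on the right. The means of the stress, profibrotic and fibrillar matrix lists are raised in every treated animal, and that of the proliferation list is not raised in animal 2.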

How the data were processed

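Polyadenylated RNA of frozen heart tissue was made into stranded libraries read from both ends, per the labels. Per the submitters' processing notes, bcl2fastq 2.17.1.14, HISAT2, featureCounts of Subread 1.5.0 and the build Rnor_6.0 were used; these sources give neither the annotation release nor the counting options. The authors deposited TPM values, which sum to 1e+06 per library. Whole reads were recovered from the TPM values within 0.001 reads for all 20828 genes above 0 in at least 6 libraries, and gave depths of 20.57 to 31.32 M reads, without molecular identifiers.

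The reference table matched 0 of the 32545 identifiers. Of 174 identifiers written from knowledge of the Ensembl rat annotation, 172 were in the table and 171 in the row block of their chromosome; 2 were dropped for low levels in all hearts (Cd36, Hprt1) and 169 used. The members and lists were chosen with earlier results of these data known. Adipose, lymphoid, Schwann, smooth muscle, globin and liver markers were chosen after their values were seen, from a larger number of identifiers tried, many of which were left out as unsure, so they are given as values.

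Genes reaching 1 TPM in 6 or more of the 18 libraries were tested with limma 3.58.1 (R 4.3.3) on log2(TPM + 1), a scale that understates changes of low genes, with a mean per group, a mean-variance trend and Benjamini-Hochberg adjustment over all 14732 genes. On simulated data for this comparison the fit called 68% of 50 genes changed 1.5-fold, 94% at 2-fold and 98% at 4-fold, with 15 calls among 14532 unchanged genes. The simulation drew independent libraries with the same spread per gene in every group and left nearly all genes unchanged. In the data 58% of genes were called and treated hearts spread more, so these rates need not hold there. By the labels each animal is 1 library, and on that reading p-values measure spread between animals. Whether DOX+saline animals 1 and 6 are separate animals was not settled. They count as 2 samples in the main fit and in the permutation test. Named with values were list members with the largest change in each direction, defining members of each list, and the 2 identifiers per direction with the largest change of all. Alternatives were other pseudocounts, filters, scalings, fits and each animal left out; voom on the recovered reads, averaging animals 1 and 6, and animals 2, 4 and 5 alone were added after seeing the data. Promoters came from the RefSeq table of GRCr8, and figures and tables were made with Python and pandas. Some list members are counted but not reported by name here.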

Additional observations from a re-analysis of the deposited data

Results flagged for a closer look

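In 302 tests of a group of 6 animals for a gene, 23 had a highest or lowest animal set apart from the other 5 by a gap above Dixon's 95% critical value. A rate of 1 in 20 gives about 15.1. The tests include the adipose, lymphoid, Schwann, smooth muscle, globin and liver markers, which were chosen after their values were seen. Picks among them are S100b, Scd, Alb, Cps1, Cd3e, Rag1 and Rag2, so the 23 cannot be set against that rate. DOX+saline animal 2 was high in Il1b (28.23 TPM), Cxcl1 (50.31 TPM) and Nr1d1 (141.7 TPM). DOX+saline animal 4 was low in Pdk4 (334 TPM) and high in Egr1 (135.1 TPM) and Dbp (226.8 TPM). Animal 3 was high in Rag1 (19.26 TPM), Rag2 (3.834 TPM), Cd3e (44.65 TPM) and Scd (135.3 TPM). Among saline animals, 53 was high in Postn (11.08 TPM), Tgfb1 (45.63 TPM), Mmp2 (171.8 TPM), Spp1 (9.573 TPM) and Alb (0.4007 TPM). Saline animal 51 was high in Icam1 (11.81 TPM) and Per1 (23.59 TPM) and low in Ddit3 (78.62 TPM). Saline animal 55 was high in Fos (91.53 TPM) and Atf3 (8.494 TPM). Saline animal 56 was high in S100b (1.915 TPM) and Cps1 (0.01627 TPM), and saline animal 54 in Rag1 (0.01135 TPM); the last 2 values are near 0.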

How the results depend on the processing

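Over 24 alternatives, 126 gene results gave 3022 values: 2863 kept direction and call, 107 lost the call, 33 gained it and 19 changed sign. Called genes numbered 8437 with median-of-ratios factors, 8438 with quantile normalization and 8543 with voom on recovered reads, against 8538. Genes at least 2-fold lower were 107 in the report, and 170 with a pseudocount of 0.1, 169 with median-of-ratios factors, 254 with quantile normalization, 172 with array weights and 177 with voom. Genes at least 2-fold higher were 984, and 643 when quantile-normalized, 829 after median-of-ratios scaling, 1241 with array weights, 1235 and 1455 with pseudocounts of 0.5 and 0.1 and 1475 with voom; the cause was not tested. Signs changed for Des (-0.0196) and Nqo1 (-0.118) with median-of-ratios factors, Actc1 (0.101) and Nqo1 (-0.0903) with quantile normalization, Nqo1 (-0.0588) and Cd74 (0.0394) with array weights, Ddit3 (0.0147) with animals 1 and 6 averaged, and Ddit3 (0.0958) and Ccnd1 (-0.0387) with animals 2, 4 and 5 alone. Leaving out 1 animal at a time gave -0.0342 to 0.0321 for Nqo1 and -0.0784 to 0.0278 for Ddit3, and left 7902 to 8710 called genes. No paired analysis was possible because the 2 groups share no animal numbers.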
